A study of Mus musculus with 9 samples.

Results

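Immediate early genes are transcribed within minutes of a stimulus, without new protein synthesis. The 10 genes described here, chosen by their symbols, were Fos, Fosb, Jun, Junb, Egr1, Egr3, Atf3, Dusp1, Arc and Nr4a1. The second deposited table held all 10 among its 25579 symbols, and the first held 4 of them among 1410. At postnatal day 28, RNA was taken from cochlear membranous labyrinth, meaning the soft tissues inside the bony capsule. There were 3 libraries from Mpzl2 WT mice, 3 from mice homozygous for hMPZL2Q74X/Q74X, a humanized MPZL2 allele with the nonsense change c.220C>T, and 3 from homozygous mice treated with AAV-ie-ABE8eWQ-SpRY:sgRNA3. That agent is a viral vector (AAV-ie) that delivers a base editor, ABE8eWQ joined to the Cas9 variant SpRY, with 1 guide RNA, injected at postnatal day 2 through the round window membrane. Homozygous libraries carry no injection label, so effects of surgery, capsid and editor cannot be told apart. Strain, sex and pooling of animals are not stated, and the genotype field counts upward from sample to sample, so groups follow the sample titles.

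The members sit at the meeting point of several signalling routes. In resting cells the serum response factor with its ternary complex partners, and the cyclic AMP response element binding protein CREB, already occupy their promoters, and kinases of the MAPK and calcium pathways switch transcription on by phosphorylating them. Fos and Jun proteins then pair as the AP-1 transcription factor, Egr1, Egr3 and Nr4a1 encode further DNA-binding factors, and Dusp1 encodes a phosphatase that shuts MAPK signalling off. In neurons, firing induces these genes, and Arc, whose product acts in synaptic plasticity, is a standard marker of recent activity. In other tissues growth factors, cytokines, mechanical stress and the handling of dissected tissue induce several of the same genes.

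Promoter windows are shown for 3 members: Fos, the prototype of the class, and Junb and Nr4a1, each of which passed the test in 1 comparison. Windows run from 250 bases before to 50 bases after the annotated start and come from RefSeq on build GRCm38.p6, where 7 of the 10 members were matched (all but Arc, Egr1 and Egr3). The Fos window lies at chr12:85473640-85473939 on the plus strand, the Junb window at chr8:84978699-84978998 on the minus strand and the Nr4a1 window at chr15:101266596-101266895 on the plus strand. Sequences read 5′ to 3′ along the gene, and capitals mark matches on either strand to the CREB core site TGACG or the EGR site GCGNGGGCG.
Fos: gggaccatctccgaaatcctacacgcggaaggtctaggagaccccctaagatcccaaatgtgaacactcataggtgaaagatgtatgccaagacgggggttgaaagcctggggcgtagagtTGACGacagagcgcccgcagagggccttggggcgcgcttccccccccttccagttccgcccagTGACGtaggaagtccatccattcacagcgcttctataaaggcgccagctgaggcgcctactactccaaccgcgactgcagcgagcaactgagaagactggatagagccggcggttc
Junb: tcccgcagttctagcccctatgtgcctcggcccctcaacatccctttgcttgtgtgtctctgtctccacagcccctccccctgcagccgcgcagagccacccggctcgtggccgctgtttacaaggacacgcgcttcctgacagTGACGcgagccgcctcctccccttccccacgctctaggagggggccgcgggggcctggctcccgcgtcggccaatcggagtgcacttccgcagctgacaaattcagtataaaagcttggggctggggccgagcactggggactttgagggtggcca
Nr4a1: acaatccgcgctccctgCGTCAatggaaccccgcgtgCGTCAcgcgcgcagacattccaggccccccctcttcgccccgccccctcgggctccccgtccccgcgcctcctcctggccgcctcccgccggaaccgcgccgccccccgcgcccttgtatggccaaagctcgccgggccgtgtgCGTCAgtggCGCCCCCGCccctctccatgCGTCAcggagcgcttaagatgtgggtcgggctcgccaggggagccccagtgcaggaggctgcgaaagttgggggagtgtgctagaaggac

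The CREB core site was in 6 of the 7 member windows, against 20.8% of the 32851 windows in the RefSeq table. Nr4a1 held 4 such sites, Dusp1 3, Fos 2, and Fosb, Junb and Atf3 1 each. The full CREB site TGACGTCA, which reads alike on both strands, was in the Dusp1 window alone among the 7, and in 1.79% of all windows. The Dusp1 core matches at -143 to -139 and -140 to -136, on opposite strands, overlap within this full site and are not separate places. The EGR site was in the Fosb and Nr4a1 windows, against 5.55% of all windows. The AP-1 site TGANTCA and the CArG box of serum response factor were in 0 of the 7 windows, against 7.81% and 1.63% of all windows. These matches describe the letters in a window, and sites further upstream were outside it.

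**Figure D1:**
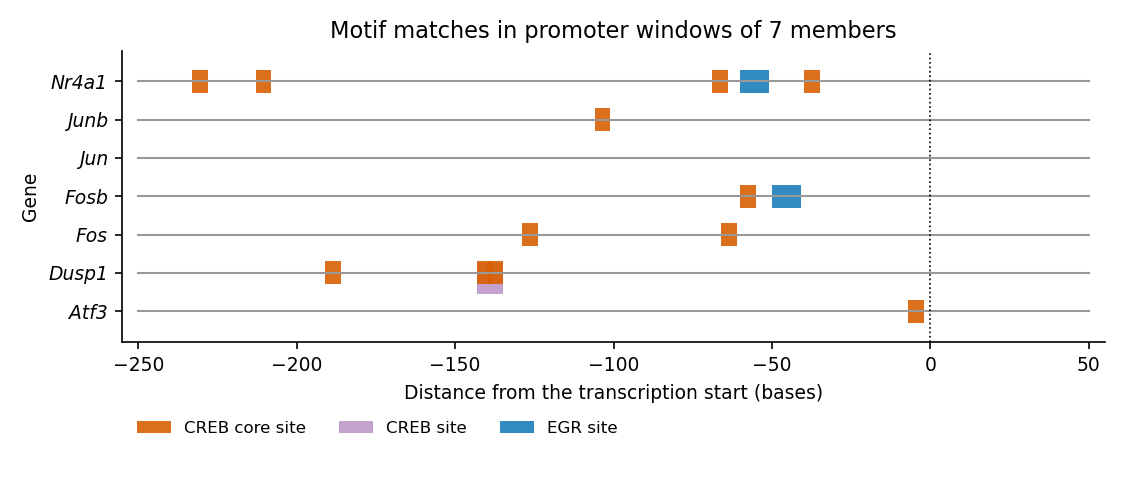
Positions of motif matches on either strand in the promoter windows of 7 members, plotted as distance in bases from the transcription start (dotted line). Nr4a1 holds 4 CREB core sites and 1 EGR site, while Jun holds none of the motifs searched.

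Values are TPM, a transcript abundance that corrects for transcript length and library total, so levels of different genes can be compared. Read depth cannot be recovered from TPM, and counting intervals are therefore not given. Cochlear markers were present in every homozygous and treated library, though not at equal levels. Coch, the cochlin gene, was at 3735 TPM or more, Gjb2, the gene of connexin 26, at 473 TPM or more, and the hair cell gene Otof at 15.3 TPM or more. Of 4 spiral ligament fibrocyte markers, 2 were below all homozygous libraries in all 3 treated libraries and 0 above. These were Coch, at 6110 to 7698 TPM in homozygous and 3735 to 4141 TPM in treated libraries, and Otos, at 2384 to 3476 and 780 to 1095 TPM. In the first table WT libraries had Coch at 4106 TPM or more and Gjb2 at 347 TPM or more. Treated libraries 1 and 2 were nearly identical. Between them the SD of the log2(TPM + 1) difference was 0.361 for genes at 1 to 5 TPM, against 0.706 to 0.808 between homozygous libraries and 1.28 to 1.29 between either of them and treated library 3. They were counted as 1 sample through their mean, which leaves 2 treated samples.

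Those 2 treated libraries also stood apart by transcripts of forebrain neurons. Of 10 forebrain neuron markers, 7 were above all homozygous libraries in treated libraries 1 and 2 only, and 2 in all 3 treated libraries. Their summed level was 70.4 to 97.4 TPM in the homozygous libraries, 1393 and 1360 TPM in treated libraries 1 and 2, and 55.5 TPM in treated library 3. Camk2a, a kinase of excitatory synapses, was at 0.47, 0.50 and 0.55 TPM in the homozygous libraries, at 745 and 722 TPM in treated libraries 1 and 2, and at 8.13 TPM in treated library 3. Tbr1, a transcription factor of cortical projection neurons, was at 27.3 and 26.4 TPM in treated libraries 1 and 2 and listed at 0 in treated library 3. Because of this difference, the members' comparison with treated libraries is given for both treated samples and with each left out.

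WT and homozygous cochleae were compared first, for Egr1, Egr3, Nr4a1 and Arc. All 4 fell in homozygous libraries, to between 37.4% and 58.0% of the WT mean. The first table is a part of the genes in which the smallest absolute log2 fold change was 0.243, so its genes are treated as chosen on these samples, and the calls are not independent evidence of direction. Of those genes, 33.5% of the 1348 tested genes were called lower and 17.9% higher (15.7% and 35% with median-of-ratios scaling), and 45.6% had all 3 homozygous libraries below all 3 WT libraries. The members' median log2 fold change was -0.97, against -0.36 over all tested genes. WT levels of the other 6 members were not analysed here.

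Egr1 and Nr4a1 were the most abundant of the 4 and fell by similar amounts. Egr1, a zinc finger factor induced by MAPK signalling, was at 18.3, 28.1 and 14.7 TPM in WT libraries 1 to 3 and at 4.4, 11.8 and 9.70 TPM in homozygous libraries 1 to 3. Every WT library lay above every homozygous one, and the log2(TPM + 1) fold change was -1.19 (standard error 0.36; limma adjusted p = 0.0393). Nr4a1, an orphan nuclear receptor, was at 19.0, 30.7 and 13.3 TPM in WT and at 6.12, 13.2 and 9.74 TPM in homozygous libraries. Its groups almost touched, since WT library 3 had 13.26 and homozygous library 2 had 13.15 TPM, and the fold change was -1.02 (standard error 0.34; limma adjusted p = 0.0448).

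Egr3 and Arc were lower in level. Egr3, a relative of Egr1, was at 4.45, 4.58 and 4.24 TPM in WT, a narrow spread, and at 2.29, 3.40 and 2.00 TPM in homozygous libraries. The groups were separate, at a log2 fold change of -0.62 (standard error 0.23; limma adjusted p = 0.0495). Arc was at 3.41, 3.49 and 2.23 TPM in WT and at 1.6, 0.66 and 1.15 TPM in homozygous libraries, again without overlap. Its log2 fold change was -0.93 (standard error 0.26; limma adjusted p = 0.0351). At these levels the added 1 TPM shrinks the fold change, and on the plain TPM scale the WT mean of Arc was 2.67-fold the homozygous mean.

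**Figure D2:**
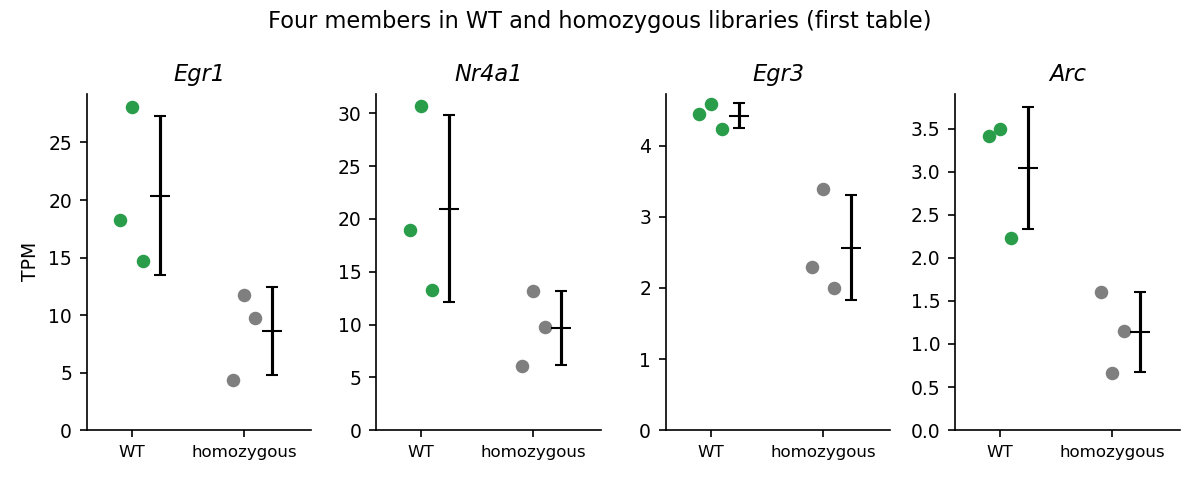
TPM of Egr1, Nr4a1, Egr3 and Arc in 3 WT and 3 homozygous libraries (points), with the mean and SD of each group (bar and whiskers), on axes from 0. All 3 homozygous points lie below all 3 WT points for each gene, with the smallest gap for Nr4a1.

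The calls were close to the threshold. Of the 4 members, 0 passed limma without WT library 1, 2 or 3. In these fits 88, 93 and 77 of the 1348 tested genes were called lower. Of the members 3, 2 and 4 had an unadjusted p under 0.05 there, against 48.7%, 50.8% and 51.5% of all genes. Without homozygous library 1, 2 and 3, 1, 3 and 2 of the members passed, and 9.27%, 26.3% and 28.5% of all genes were called lower. With median-of-ratios scaling 2 passed. The 4 genes also moved together between WT libraries, with library 2 highest and library 3 lowest for each. The same homozygous libraries had other values in the second table: Arc was 1.40 to 1.58 times and Egr1 1.36 to 1.41 times as high there, Nr4a1 0.85 to 1.17 times and Egr3 0.89 to 1.39 times. Over 1297 genes the median ratio of the first table to the second was 0.855 to 0.860, so levels were generally higher in the second.

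Cell type markers were also called between the same groups: of 15 in the first table, 7 fell and 1 rose, against 33.5% and 17.9% of all tested genes. Like the members, they belong to genes treated as chosen on these samples. The Schwann cell genes Pmp22 and Prx fell, each with a log2 fold change of -1.0, as did the neurofilament gene Nefl with -0.64 (limma adjusted p = 0.0281, 0.00847 and 0.0477). The bone genes Dmp1 and Ibsp fell by 1.31 and 1.59 on the log2 scale and the B cell gene Ighm by 0.99. Slc4a11, a transporter of spiral ligament fibrocytes, rose from a mean of 131 to 471 TPM (log2 fold change 1.72, limma adjusted p = 0.0241). The part of these cells in the members' fall was not tested, and in whole tissue fewer cells of a type and less RNA per cell cannot be told apart. The first table held 0 of the 10 forebrain neuron markers.

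Other genes of early induction did not move one way in this comparison, and they too are treated as chosen on these samples. Beside the calls below, 17.9% of all tested genes were called higher and 33.5% lower. Jund, the Jun family member with the steadiest expression, rose from 35.5 ± 4.84 TPM in WT to 52.7 ± 9.05 TPM in homozygous libraries (SD, n = 3; limma adjusted p = 0.0414). Egr2, which also acts in myelinating Schwann cells, was at 27.3, 33.3 and 26.2 TPM in WT and at 17.1, 11.5 and 28.8 TPM in homozygous libraries, so the groups overlapped. Errfi1, a feedback inhibitor of the EGF receptor, rose with a log2 fold change of 0.58, and it was 1 of 3 tested genes of feedback regulators and secreted proteins. Camk4, a calcium-dependent kinase that phosphorylates CREB, and Nptx2, a secreted synaptic protein, fell with -0.69 and -0.80, each the single call in its list, of 1 and 4 tested genes. The heat shock list held 4 tested genes, of which 3 rose and 0 fell. Hspb1 went from 27.1 ± 1.73 TPM in WT to 60.6 ± 11.6 TPM in homozygous libraries (SD, n = 3; limma adjusted p = 0.00544), while Hsph1 and Hspa1b had log2 fold changes of 0.62 and 0.64. Jund and Hspa1b kept their call in 0 of the 6 fits that left out 1 library, Nptx2 in 1, Errfi1 and Camk4 in 2, Hsph1 in 3 and Hspb1 in 6. No gene of the mitochondrially encoded list or of the NF-kB and cytokine list was among the tested genes of the first table, which had 0 of each.

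Treated and untreated homozygous cochleae were compared next. Of the 10 members only Junb passed limma as higher, 0 passed as lower, and 3 (Junb, Fos and Fosb) had an unadjusted p under 0.05, as had 26.7% of all tested genes. Of the 17102 tested genes 3.44% were called higher and 0.965% lower. Patterns differed by library: Junb was high in all 3 treated libraries, Fos and Fosb were far higher in treated libraries 1 and 2 than in library 3, Arc, Egr1, Egr3 and Nr4a1 were high in libraries 1 and 2 only, and Jun, Atf3 and Dusp1 had smaller differences. Fold changes of all 10 members were above 0 (log2 median 0.80), but the median over all tested genes was itself 0.20. Under median-of-ratios scaling that median was 0.02 and the members' median 0.61, with 9 of the 10 above 0.

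**Figure D3:**
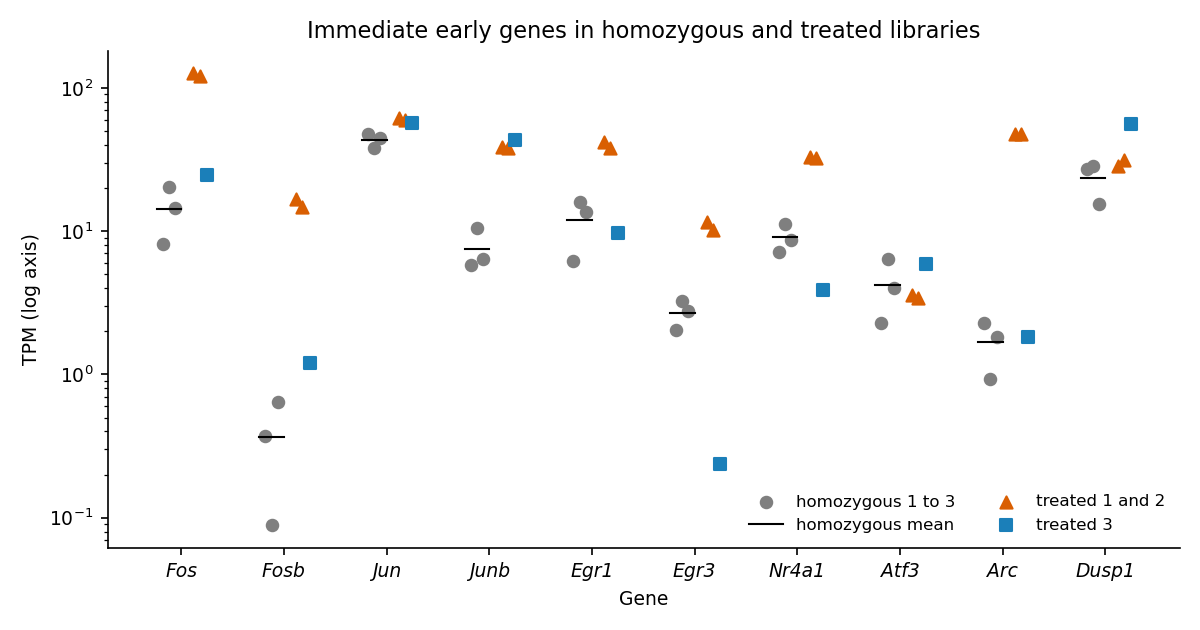
TPM of the 10 members on a log axis in homozygous libraries 1 to 3 (circles, mean as a line), treated libraries 1 and 2 (triangles) and treated library 3 (square). For Junb the 3 treated points lie together above the homozygous points, while for Arc, Egr1, Egr3 and Nr4a1 treated library 3 lies within or below the homozygous range.

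Junb, which encodes an AP-1 subunit, was at 5.83, 10.5 and 6.34 TPM in homozygous libraries 1 to 3 and at 38.6, 38.3 and 43.1 TPM in treated libraries 1 to 3. All treated libraries lay well above all homozygous ones and close to each other. It rose by 2.32 on the log2 scale (standard error 0.34; limma adjusted p = 0.0225). The level in treated libraries 1 and 2 was 5.08 times the homozygous mean and that in library 3 was 5.69 times. Junb lost its call without homozygous library 1 or 3 (limma adjusted p = 0.129 and 0.117), with no filter on low values (0.0718) and with treated library 3 as the only treated sample (0.0662), where its log2 fold change was 2.40. Without treated library 3 it was 2.24 (limma adjusted p = 0.03).

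Markers of macrophages and T cells were high in the same 3 libraries as Junb. All 8 macrophage markers were above every homozygous library in every treated library, with summed levels of 83.8 to 122 TPM in homozygous and 417 to 461 TPM in treated libraries. For T cells this held for 5 of 6 markers, with summed levels of 0.33 to 4.55 and 69.1 to 98.4 TPM. Other cell types moved less evenly: 1 of 6 neutrophil markers, 2 of 5 B cell markers and 4 of 6 hair cell markers were above in all 3 libraries, and 5 of 6 bone markers were below. The part of these cells in the level of Junb was not tested. Of 18 tested genes of the NF-kB and cytokine list, 7 rose and 0 fell, against 3.44% and 0.965% of all tested genes. The median log2 fold change of the list was 1.62. Ccl2, one of the 7, and Tnf were under 1 TPM in all homozygous libraries and entered the test only through the treated ones, and without them 6 of 16 rose. The count was 2 of 18 without homozygous library 1, 2 or 3, where 62, 158 and 67 of 17102 tested genes were called higher. With no filter it was 2 of 20, against 127 of 25579 genes. The list's median log2 fold change was 1.67 without treated library 3, against 0.29 over all tested genes. With that library as the only treated sample these medians were 1.49 and 0.085. Irf1, a transcription factor of interferon responses, rose by 2.99 on the log2 scale, and Icam1 and Nfkb2 by 2.58 and 1.66 (limma adjusted p = 0.00307, 0.0217 and 0.0217). Of that list 16 of 18 genes, Ccl2 and Tnf included, were above all homozygous libraries in all 3 treated libraries, a pattern shown by 28% of all tested genes and by 4 of the 10 members (Junb, Jun, Fos and Fosb).

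Fos, the partner of Jun proteins in AP-1, was at 8.16, 20.3 and 14.5 TPM in homozygous libraries and at 126, 121 and 24.8 TPM in treated libraries 1 to 3. The treated libraries were all higher, but library 3 exceeded homozygous library 2 by little. The mean of treated libraries 1 and 2 was 8.66 times the homozygous mean and library 3 was 1.73 times. Over both treated samples the log2 fold change was 1.97 (standard error 0.69; limma adjusted p = 0.134). Fosb, its paralog, was at 0.37, 0.09 and 0.64 TPM in homozygous libraries and at 16.6, 14.9 and 1.21 TPM in treated libraries. It entered the test only through the treated libraries, because a gene needed 1 TPM in 3 libraries, and its log2 fold change was 2.17 (standard error 0.83; limma adjusted p = 0.161).

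Arc showed the widest contrast with the homozygous level among the 4 members that were high in treated libraries 1 and 2 only. It was at 2.28, 0.93 and 1.82 TPM in homozygous libraries, at 47.8 and 47.9 TPM in treated libraries 1 and 2 and at 1.84 TPM in library 3, inside the homozygous range. Egr3 was at 2.04, 3.24 and 2.79 TPM in homozygous libraries, at 11.5 and 10.1 TPM in treated libraries 1 and 2 and at 0.24 TPM in library 3, below the homozygous range. Nr4a1 was at 7.18, 11.2 and 8.70 TPM in homozygous libraries and at 32.8, 32.6 and 3.86 TPM in treated libraries, again with library 3 lowest of all. Egr1 was at 6.18, 16.0 and 13.7 TPM in homozygous libraries and at 41.6, 38.0 and 9.76 TPM in treated libraries, with library 3 inside the homozygous range. Treated libraries 1 and 2 exceeded library 3 by 45.4 times for Egr3, 26.0 times for Arc, 8.47 times for Nr4a1 and 4.08 times for Egr1, and by 13.1 and 5.0 times for Fosb and Fos. These ratios compare 1 sample with another and have no test. High values in treated libraries 1 and 2 only were seen in 20.1% of all tested genes.

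Over both treated samples these 4 members did not pass limma. The log2 fold changes were 2.17 for Arc, 0.79 for Egr1, 0.07 for Egr3 and 0.37 for Nr4a1, with standard errors of 1.11, 0.65, 0.90 and 0.78 (limma adjusted p = 0.261, 0.475, 0.969 and 0.792). Without treated library 3, where the lone treated sample is assumed to vary like the homozygous ones, 6 of the 10 members were called higher, against 13.2% of all genes. The 6 include Fosb, which the filter let in only through treated libraries, and 5 of the other 9 were called. Arc, under 1 TPM in homozygous library 2, also needed a treated library to enter. The genes called were Arc (log2 fold change 4.23), Fosb (3.64), Fos (3.11), Junb (2.24), Nr4a1 (1.77) and Egr3 (1.69), while Egr1 had 1.75 (limma adjusted p = 0.0842). With treated library 3 as the only treated sample 0 of the 10 were called, 4 had an unadjusted p under 0.05 (Junb, Dusp1, Egr3 and Nr4a1) against 28.2% of all genes, and 1.05% of all genes were called higher. Egr1, Egr3 and Nr4a1 then had negative log2 fold changes of -0.18, -1.56 and -1.03, and those of Arc, Fos and Fosb were 0.12, 0.84 and 0.71.

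The forebrain markers described above had the same division between treated libraries. The summed level of 7 neuron markers of the spiral ganglion was 2533 to 4460 TPM in homozygous libraries. It was 3209 and 2997 TPM in treated libraries 1 and 2 and 1807 TPM in library 3, the lowest. Not all 7 genes are confined to the ganglion, so this sum does not separate ganglion from forebrain neurons. The most abundant of the 7, Snap25, was at 1094 to 2029 TPM in homozygous and at 2048, 1870 and 973 TPM in treated libraries. The neurofilament genes Nefh, Nefl and Nefm were instead below all homozygous libraries in all 3 treated libraries. Nefl was at 376 to 654 TPM in homozygous and at 221, 217 and 187 TPM in treated libraries. Neurod6, a forebrain factor, was listed at 0 in all homozygous libraries and in treated library 3, and was at 6.25 and 6.0 TPM in treated libraries 1 and 2. The part of forebrain or ganglion RNA in the levels of Arc, Egr1, Egr3, Nr4a1, Fos and Fosb was not tested.

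**Figure D4:**
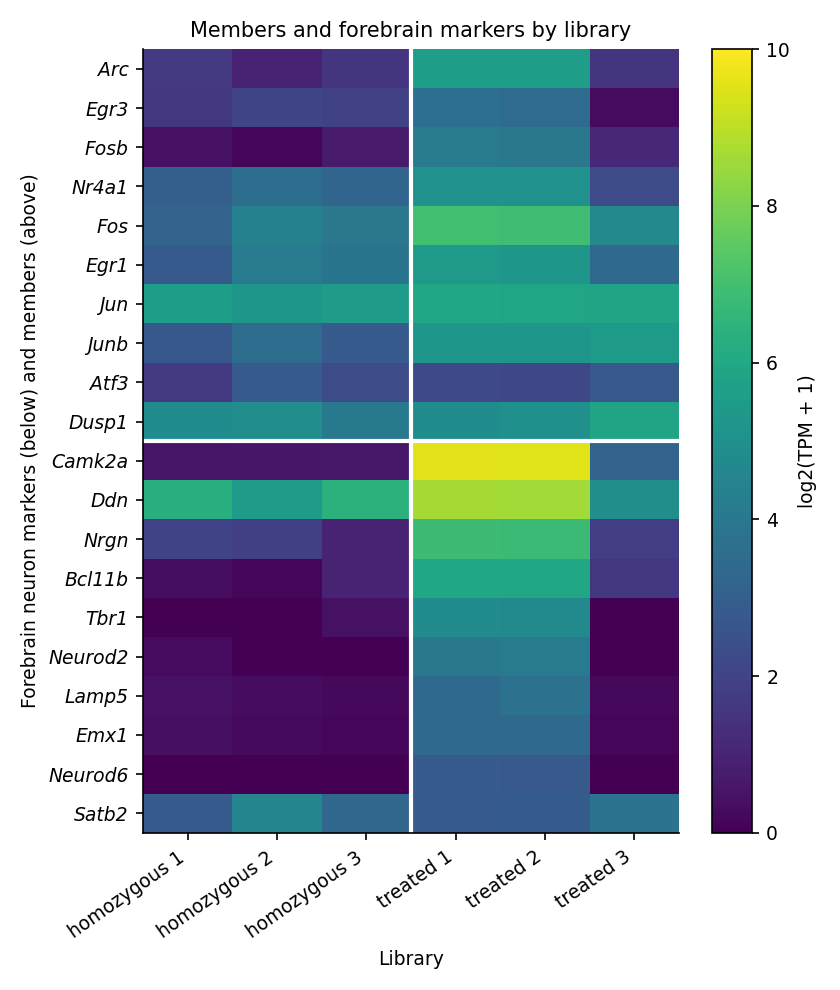
Levels as log2(TPM + 1), by colour, of the 10 members (above the horizontal white line) and of 10 forebrain neuron markers (below it) in homozygous libraries 1 to 3 and treated libraries 1 to 3. Arc, Egr3, Fosb and Nr4a1 are brightest in treated libraries 1 and 2, as are 9 of the 10 forebrain markers, while Junb is bright in all 3 treated libraries.

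Jun, Atf3 and Dusp1 made up the remaining group. Jun, the most abundant member in homozygous libraries, was at 47.3, 38.3 and 45.04 TPM there and at 61.6, 59.3 and 56.7 TPM in treated libraries. The treated libraries were all higher by a small amount, and the log2 fold change of 0.42 did not pass (standard error 0.19; limma adjusted p = 0.219). Atf3, a stress-induced factor and a marker of injured neurons, was at 2.27, 6.41 and 4.03 TPM in homozygous and at 3.56, 3.44 and 5.87 TPM in treated libraries, with full overlap (log2 fold change 0.17, standard error 0.48, limma adjusted p = 0.853). Dusp1 was at 27.0, 28.5 and 15.4 TPM in homozygous libraries and at 28.3, 31.5 and 56.2 TPM in treated libraries. Here library 3 was the highest, at 2.38 times the homozygous mean, and libraries 1 and 2 were near the upper homozygous values (log2 fold change 0.82, standard error 0.38, limma adjusted p = 0.228). Without treated library 3 the log2 fold changes of Jun, Atf3 and Dusp1 were 0.47, -0.14 and 0.37, and with it as the only treated sample 0.38, 0.47 and 1.26.

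Homozygous libraries differed among themselves by 7.20-fold for Fosb, which was under 1 TPM in each of them. For the other members the spread ran from 1.23-fold for Jun to 2.83-fold for Atf3. Library 2 was highest for 7 of the 10 members and library 1 lowest for 6. Library 2 also had the highest summed bone markers, 963 TPM against 243 and 256 TPM, and the highest erythroid markers, 2634 TPM against 790 and 244 TPM. Arc, Jun and Fosb were instead lowest in library 2, and the summed ganglion markers were lowest in that library too, at 2533 TPM against 4307 and 4460 TPM. The part of tissue composition in this spread was not tested.

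Wider lists of early-induced genes contained both patterns of the treated libraries. Of 19 tested other immediate early transcription factors, limma called 0, and 5 were under an unadjusted p of 0.05, a share near the 26.7% of all genes. Of them 15 were above 0, and the median log2 fold change was 0.54. Jund was at 56.2, 77.4 and 65.4 TPM in homozygous and at 125, 115 and 145 TPM in treated libraries (limma adjusted p = 0.0511), high in all 3 like Junb. Nr4a3, Npas4 and Egr4, named after their values were seen, were higher in treated libraries 1 and 2 than in library 3, like Arc. Nr4a3 was at 34.7 and 37.1 TPM in treated libraries 1 and 2 and 1.27 TPM in library 3. Npas4 was at 6.78 and 7.77 TPM in libraries 1 and 2 and Egr4 at 4.69 and 5.26 TPM. Both were listed at 0 in library 3, did not pass the filter and were not tested. Csrnp1, named in the same way, was at 3.91 to 7.74 TPM in homozygous libraries, 5.25 and 5.08 TPM in treated libraries 1 and 2, and 38.6 TPM in library 3. Of 25 tested feedback regulators and secreted proteins, 1 rose and 0 fell. That gene was Gadd45b, a stress-induced regulator of MAPK signalling, at 3.68, 4.97 and 5.21 TPM in homozygous and 22.2, 19.2 and 18.4 TPM in treated libraries (log2 fold change 1.88, limma adjusted p = 0.0366), and 11 of the 25 had an unadjusted p under 0.05, against 26.7% of all genes.

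Among 25 upstream kinases and factors limma called 0, 5 were under an unadjusted p of 0.05, and 13 were high in treated libraries 1 and 2 only. Of 17 tested activity-regulated neuronal genes 0 passed, 6 had an unadjusted p under 0.05, and 8 were high in libraries 1 and 2 only. For both lists the shares over all tested genes were 26.7% with such a p and 20.1% high in libraries 1 and 2 only. Without treated library 3 the median log2 fold change was 1.67 for these 17 and 0.54 for the 25 upstream genes, against 0.29 over all tested genes. With it as the only treated sample these medians were 0.077, -0.097 and 0.085. Vgf, a secreted neuropeptide precursor named after its values were seen, was at 0.25 to 1.13 TPM in homozygous libraries. It was at 46.1 and 45.9 TPM in treated libraries 1 and 2 and 0.21 TPM in library 3, and needed treated libraries to enter the test. Of 15 tested heat shock genes limma called 0 higher and 1 lower, against 3.44% and 0.965% of all tested genes. Their median log2 fold change was 0.0046, against 0.20 over all tested genes. The gene called lower was Dnaja1, at -1.56 on the log2 scale (limma adjusted p = 0.0129). Hspb1 was at 74.3 to 103 TPM in homozygous libraries and at 168, 166 and 363 TPM in treated libraries 1 to 3. Its log2 fold change of 1.53 did not pass (limma adjusted p = 0.0571). Of the 15 genes, 2 were above all homozygous libraries in all 3 treated libraries and 4 were below. Over all 17102 tested genes these counts were 4784 and 2527. Of the 13 mitochondrially encoded genes limma called 3 lower, against 0.965% of all tested genes. These were mt-Nd2 at -3.70, mt-Nd4 at -3.25 and mt-Nd6 at -3.89 on the log2 scale. All 13 had negative log2 fold changes, with mt-Co1 nearest to 0 at -0.07. In all 3 treated libraries 11 of the 13 were below all homozygous libraries, as were 2527 of the 17102 tested genes. Without treated library 3 the median log2 fold change of the 13 was -3.30, and with it as the only treated sample it was -1.47. Medians of the 15 heat shock genes in these fits were -0.22 and -0.32. Log2 fold changes in these fits were 2.91 and 3.08 for Irf1, 2.45 and 2.72 for Icam1, 1.56 and 1.77 for Nfkb2, and 1.96 and 1.80 for Gadd45b, and of these 4 genes only Irf1 was called in both. In the 6 fits that left out 1 library, Irf1 kept its call in 6, Dnaja1 in 4, and Gadd45b, Icam1, Nfkb2 and the 3 mitochondrial genes in 3 each. Mitochondrially encoded genes held 10.7% to 13.6% of TPM in homozygous libraries, 2.17% and 2.22% in treated libraries 1 and 2 and 6.16% in library 3. Rescaled to nuclear genes, Junb kept its call with a log2 fold change of 2.21.

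**Figure D5:**
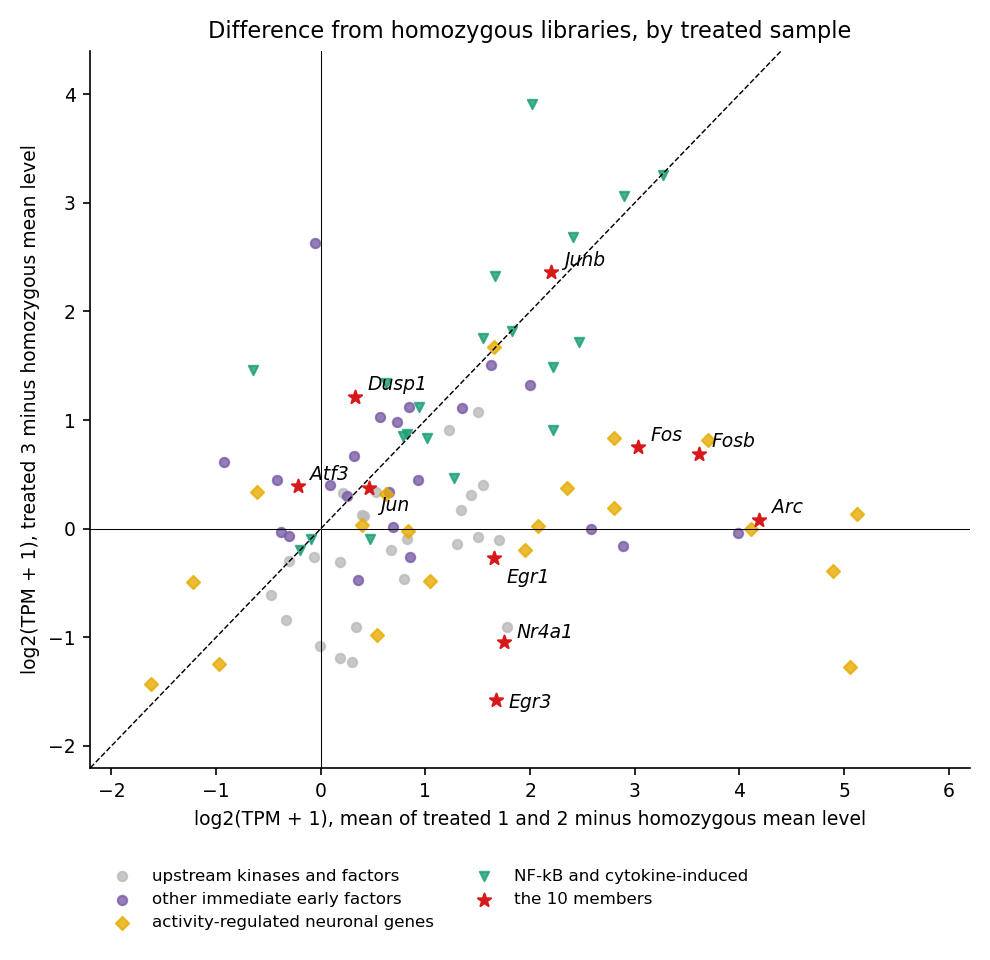
Difference from the homozygous mean on the log2(TPM + 1) scale for the mean of treated libraries 1 and 2 (x axis) and for treated library 3 (y axis), for the 10 members (stars) and 4 gene lists, with equal values on the dashed line. Junb lies near the dashed line among genes of the NF-kB and cytokine list, while Arc, Fos and Fosb lie far to the right and Egr1, Egr3 and Nr4a1 lie to the right and below 0.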

How the data were processed

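The authors deposited TPM values in 2 tables, one of 1411 rows for WT and homozygous libraries and one of 25606 rows for homozygous and treated libraries. Kallisto 0.51.0, DESeq and build GRCm39 are named in the submitters' processing notes, and no source used here tells how rows of the first table were chosen. Each table was analysed by itself. Values of repeated symbols were summed, and a gene was tested if 3 or more libraries reached 1 TPM. Differences were tested with limma 3.58.1 in R 4.3.3 on log2(TPM + 1), fitting group means with the trend option, two-sided, with Benjamini-Hochberg adjustment over all tested genes and a threshold of 0.05. Scripts were tested on simulated data. Members, gene lists and marker lists were chosen with earlier results of these data known. Of each list, every gene past the threshold was named, up to 4 per direction and comparison, apart from a result that is not reported here. Libraries are labelled as biological replicates, and where they share an animal, p-values measure only the spread between libraries. Treated libraries 1 and 2 were counted as 1 sample. Proteins were not analysed here.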

Additional observations from a re-analysis of the deposited data

How the results depend on the processing

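In the first comparison 692 genes were called, 241 higher and 451 lower, and with median-of-ratios scaling 472 higher and 212 lower. With 1 replicate left out the count ran from 103 to 611, and the members called from 0 to 3 of 4. Members called were 2 with median-of-ratios scaling. In the second comparison 754 genes were called, 589 higher and 165 lower, against 404 higher and 243 lower with median-of-ratios scaling. The count was 134 with no filter, 3563 with treated libraries 1 and 2 as separate samples, 222 with treated library 3 alone, and 63 to 2984 with 1 replicate left out. Members called were 0, 2, 0 and 0 to 6 in these settings, against 1. The signs of Egr1 and Nr4a1 turned with treated library 3 alone (-0.18 and -1.03), and that of Egr3 there (-1.56), with a pseudocount of 0.1 (-0.51), with median-of-ratios scaling (-0.092) and with scaling to nuclear genes (-0.054). With 1 replicate left out Egr3 ran from -0.068 to 1.69 and Atf3 from -0.14 to 0.46. The cause was not tested. Signs of the other 6 members in the second comparison, and of the 4 in the first, were the same in all settings run.

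The labels number replicates alike in each group. Same-numbered libraries had correlations of deviations of -0.14 to 0.05 in the first table and -0.15 to 0.03 in the second, so the numbers were not taken as pairs. With the replicate block 343 genes and 2 of 4 members were called in the first comparison. In the second the block was fitted with treated libraries 1 and 2 as separate samples, and 1485 genes and 1 of 10 members were called, against 3563 and 2 with them separate and no block. Fits without treated library 1 or 2 kept its near copy. TPM holds no read depth, so precision at low levels such as those of Arc, Egr3 and Fosb is unknown.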
